A study of Homo sapiens with 1 sample.

Results

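The family of miR-130a, miR-130b, miR-301a, miR-301b and miR-454 was described on 1 microarray of DLD-1 cells, an established human colorectal carcinoma line. The cells had been transfected with a negative control plasmid, the empty pLVX-NC vector, and their RNA was labelled with Cy3 and hybridized to a 1-colour Agilent miRNA array. Cells transfected with the circLONP2 plasmid, a vector that expresses a circular RNA of the LONP2 gene, were not analysed here, so no comparison between conditions could be made. A plasmid was present in the control cells, and untransfected DLD-1 cells were not analysed here. The 6 members were the miRNAs named hsa-miR-130a-3p, hsa-miR-130b-3p, hsa-miR-301a-3p, hsa-miR-454-3p, hsa-miR-130b-5p and hsa-miR-454-5p, chosen by name from 2549 human miRNAs on the array. All 6 were found, with 20 spots each. The 3p guides were to be set beside the detected 5p arms, but no 5p arm of the family was detected.

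A miRNA is cut from a hairpin precursor, whose 2 sides give a 5p and a 3p product. One of these, the guide, is loaded into an Argonaute protein and pairs with messenger RNAs mainly through its seed, the stretch near its 5′ end, which lowers their translation and stability. In this family the 3p products are the usual guides and share a seed, so they can recognise overlapping sets of messenger RNAs. Family members have been studied in tumour growth, hypoxia and vascular biology.

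The guides are shown first because the shared seed is what defines the family. Sequences were taken from RefSeq on GRCh38.p14, 5′ to 3′, with the seed (bases 2 to 8) in capitals. Of 17 miRNAs described here, 15 were matched in the RefSeq table by name, among them 5 of the 6 members. hsa-miR-130a-3p is named only. The family members come first, followed by hsa-miR-301b-3p of the same family and then by hsa-miR-3666 and hsa-miR-4295, which have the same seed and other hairpins.
hsa-miR-130b-3p: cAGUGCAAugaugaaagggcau
hsa-miR-301a-3p: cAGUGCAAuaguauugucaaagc
hsa-miR-454-3p: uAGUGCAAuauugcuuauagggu
hsa-miR-301b-3p: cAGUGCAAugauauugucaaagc
hsa-miR-3666: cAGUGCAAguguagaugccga
hsa-miR-4295: cAGUGCAAuguuuuccuu

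The seed AGUGCAA stood at bases 2 to 8 in 6 of 2370 human mature miRNAs of the table (0.253%), those printed above. Outside the seed the guides differed to unlike degrees. With the seed counted in, hsa-miR-130b-3p and hsa-miR-301a-3p were identical at 11 of 22 aligned positions, and hsa-miR-130b-3p and hsa-miR-454-3p at 10 of 22. hsa-miR-301a-3p and hsa-miR-301b-3p differed at 2 of 23 positions, written as A10G and G11A with the miR-301a base first and positions counted from the 5′ end. Probes for these last guides could each bind some of the other's RNA, which was not tested. hsa-miR-454-3p was the only one of the printed guides to open with U rather than C (C1U against hsa-miR-130b-3p).

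The 5p arms that belong to the members lie opposite the guides in the hairpin and carry other seeds. They are shown because neither was detected.
hsa-miR-130b-5p: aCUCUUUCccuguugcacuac
hsa-miR-454-5p: aCCCUAUCaauauugucucugc

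hsa-miR-130b-5p holds UUGCACU, the complement of the guide seed. This run occurred in 8 of 2370 human mature miRNAs (0.338%), read on the RNA strand only, and was absent from hsa-miR-454-5p. The hairpins of MIR130B and MIR454 show how both arms sit in 1 precursor, with the arms in capitals, the 5p arm first.
MIR130B: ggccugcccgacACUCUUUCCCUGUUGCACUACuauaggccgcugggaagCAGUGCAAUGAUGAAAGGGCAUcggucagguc
MIR454: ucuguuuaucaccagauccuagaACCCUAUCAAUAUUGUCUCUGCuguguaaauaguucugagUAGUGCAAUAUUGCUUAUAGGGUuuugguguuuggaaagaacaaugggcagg

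In the RefSeq annotation of GRCh38.p14 the family is encoded by 5 hairpins at 3 places. MIR130A lies alone at chr11:57641198-57641286 on the plus strand. MIR301B at chr22:21652981-21653058 and MIR130B at chr22:21653304-21653385 lie on the plus strand with 245 bases between them. MIR454 at chr17:59137758-59137872 and MIR301A at chr17:59151136-59151221 lie on the minus strand with 13263 bases between them. Both chromosome 17 hairpins fall within the span of SKA2, a spindle and kinetochore associated gene on the same strand at chr17:59109857-59155186. Whether they lie in its introns or exons was not analysed here.

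Each spot gave a brightness from which the authors' scanner software had subtracted the local background, so a value near or below 0 was at background. The software flagged a miRNA as detected, and in these data the flag was set exactly where the summed signal of its best probe was more than 3 times its error. Of all human miRNAs, 1448 of 2549 (56.8%) were detected. On the same array 99% of the 1000 negative control spots, which are designed to match no human RNA, lay below 12.5. One of their 7 probes stood apart with a median of 8.62, and without it the level was 5.58. No spot was saturated. With 1 array, the SD given below describes spots and not cultures. For a miRNA it was taken over the spots of all its probes together, so it includes differences between probes. Brightness depends on how well a probe binds, so it ranks signals and not amounts of RNA. Of markers for the cell line, 7 of 9 epithelial and intestinal miRNAs were detected, with hsa-miR-192-5p and hsa-miR-194-5p not detected, and their summed mean brightness was 3326, most of it hsa-miR-141-3p at 3024. Markers of blood cells were detected for 3 of 5, of muscle for 2 of 4 and of stroma and endothelium for 2 of 4, with summed brightness of 42.4, 49.7 and 101. The brightest of these lists were the blood marker hsa-miR-223-3p at 16.5, the muscle marker hsa-miR-206 at 26.7 and the endothelial marker hsa-miR-126-3p at 58.9. Not detected were hsa-miR-451a and hsa-miR-144-3p of the blood list, hsa-miR-1-3p and hsa-miR-133b of the muscle list, and hsa-miR-143-3p and hsa-miR-199a-3p of the stromal and endothelial list.

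Of the 6 family members, 2 were detected, hsa-miR-130a-3p and hsa-miR-130b-3p, beside 56.8% of all human miRNAs. Both are guides. The guides hsa-miR-301a-3p and hsa-miR-454-3p were not detected, nor were hsa-miR-130b-5p and hsa-miR-454-5p. The same 2 members had a brightest probe at least 2 times as bright as that negative control level, which 44.6% of all human miRNAs reached. normexp, another correction for background, adds an offset of 50 to every spot, and the control level was taken anew with the offset left in. On that scale 1 member was at least 2 times as bright, hsa-miR-130b-3p, beside 26.7% of all human miRNAs. An offset draws ratios together, so this margin was stricter than the one before. The plot of single spots shows the gap between the detected and the undetected members.

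**Figure D1:**
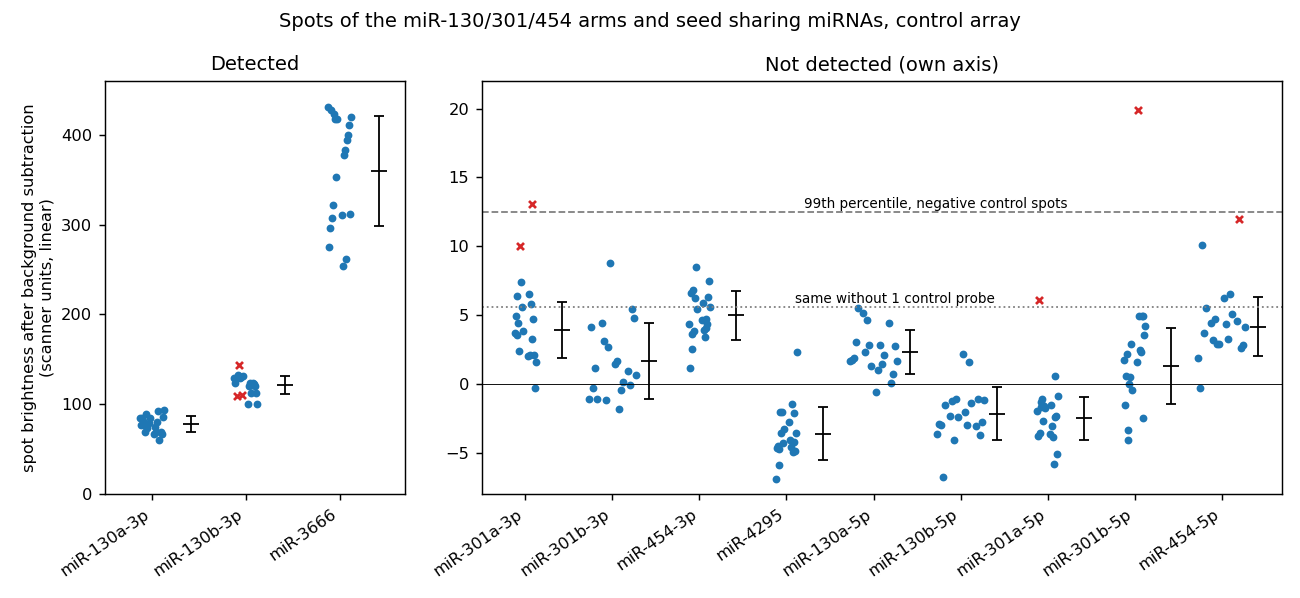
Brightness of every spot (scanner units, linear) for the family arms and the miRNAs with the same seed, with detected miRNAs on the left and undetected ones on a separate, finer axis on the right. Blue points are spots used, red crosses are spots marked as outliers, columns of points within a miRNA are its probes, and the bar gives mean ± SD over the spots used. The spots used of hsa-miR-130a-3p sit between 59.9 and 93.0 and those of hsa-miR-130b-3p between 99.7 and 132, while those of the 9 undetected miRNAs all lie below 12.5, the upper dashed line.

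hsa-miR-130b-3p, the guide of the chromosome 22 hairpin, was the brightest member. Its mean brightness was 121 ± 9.96 (SD over 17 spots, 3 more being marked as outliers), with a lowest spot of 99.7, a median of 123 and a highest of 132. All 20 of its spots were well above background. Its log2 signal was -1.03 on a scale where 0 is the 75th percentile over detected probes, a brightness of 248.8, and it ranked 500 of the 1448 detected human miRNAs by mean brightness. hsa-miR-130a-3p, the guide of the chromosome 11 hairpin, averaged 77.8 ± 9.12 (SD over 20 spots). It had a lowest spot of 59.9, a median of 77.8 and a highest of 93.0. Its log2 signal was -1.69 and it ranked 646. The spots of these guides did not overlap: the highest hsa-miR-130a-3p spot was below the lowest hsa-miR-130b-3p spot. Both lay somewhat above the middle of the detected miRNAs, brighter than 55.4% of them for hsa-miR-130a-3p and 65.5% for hsa-miR-130b-3p.

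**Figure D2:**
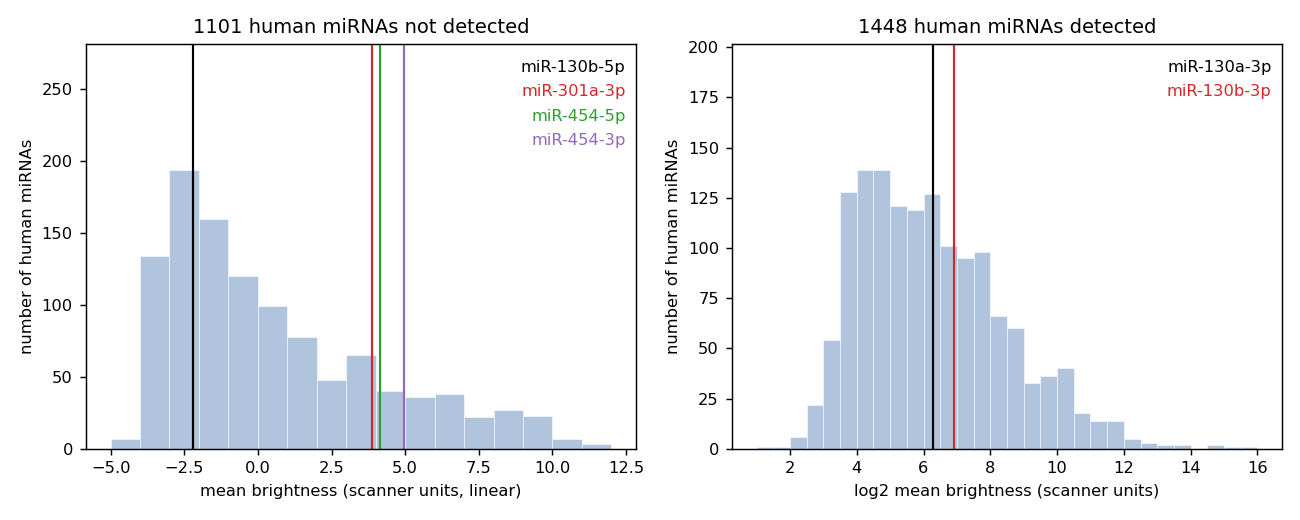
Number of human miRNAs (vertical axis) by mean brightness, for the 1101 undetected miRNAs on a linear scale (left) and the 1448 detected ones on a log2 scale (right), with vertical lines at the 6 members. The detected members lie near the middle of the right-hand distribution, and hsa-miR-301a-3p, hsa-miR-454-5p and hsa-miR-454-3p lie in the upper tail of the left-hand one, with hsa-miR-130b-5p near its peak.

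Each detected guide was read by 2 probes, which report on the same RNA. The hsa-miR-130a-3p probes had means of 79.8 ± 6.09 and 75.8 ± 11.4 (SD, 10 spots each), which is 0.085 apart on the log2 scale with a standard error of 0.076. Those of hsa-miR-130b-3p had means of 129 ± 2.87 (SD over 7 spots) and 116 ± 9.17 (SD, 10 spots), which is 0.17 apart with a standard error of 0.04. The first difference was within 2 standard errors, and the second was not. When spots in the first 41 columns of the array were left out, the differences were 0.016 and 0.102, with standard errors of 0.102 and 0.021. The second was still not within 2 standard errors. The median SD between spots over these 4 probes was 0.115 on the log2 scale, from 0.032 to 0.214, beside 0.147 over 3263 probes of detected miRNAs. The 3263 include probes with no spot well above background, while all spots of the 4 were well above it.

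hsa-miR-301a-3p, a guide of the chromosome 17 hairpins, is among the miRNAs that the study lists from its own comparisons of arrays. What that listing rested on cannot be read from the 1 array described here. On the control array hsa-miR-301a-3p was not detected. Its mean brightness was 3.89 ± 2.02 (SD over 18 spots), with a lowest spot of -0.30, a median of 3.77 and a highest of 7.39. None of its spots was well above background, and 11 of 20 were positive and significant, a weaker mark that the software sets for a spot above its local background. Its best probe had a summed signal 1.24 times its error, below the 3 needed for detection. The 2 spots marked as outliers were brighter than all the others, and with them kept the mean was 4.65.

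hsa-miR-454-3p, the guide of the neighbouring hairpin, was also undetected. Its mean brightness was 4.96 ± 1.76 (SD over 20 spots), with a lowest spot of 1.13, a median of 4.67 and a highest of 8.47. All of its spots were above 0, and 16 of 20 were positive and significant. Its best probe reached 1.32 times its error. The spots of hsa-miR-301a-3p and hsa-miR-454-3p overlapped over most of their range.

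hsa-miR-454-5p, the opposite arm of that hairpin, averaged 4.13 ± 2.14 (SD over 19 spots). It had a lowest spot of -0.27, a median of 4.15 and a highest of 10.1. Of its 20 spots, 11 were positive and significant, and its best probe reached 1.34 times its error. hsa-miR-130b-5p, the opposite arm of the brightest guide, had a mean of -2.19 ± 1.93 (SD over 20 spots), with a lowest spot of -6.77, a median of -2.37 and a highest of 2.17. It had no positive and significant spot, and 18 of its 20 spots were below a brightness of 1.

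The means of hsa-miR-301a-3p, hsa-miR-454-5p and hsa-miR-454-3p lay above the medians of 6 of the 7 negative control probes, which ran from -3.18 to 2.27. They lay below the median of the bright control probe, 8.62. The mean of hsa-miR-130b-5p lay within the range of the 6. Mean brightness was above that of 81.7% of the 1101 undetected human miRNAs for hsa-miR-301a-3p, 82.9% for hsa-miR-454-5p and 85.7% for hsa-miR-454-3p, against 27.9% for hsa-miR-130b-5p. At least as many positive and significant spots as hsa-miR-454-3p were found in 11.8% of the undetected miRNAs, and at least as many as for hsa-miR-301a-3p or hsa-miR-454-5p in 18.2%. When a miRNA was called on at least 0.5 of the spots used of 1 probe being positive and significant, 5 of 6 members were called, all but hsa-miR-130b-5p, beside 68.9% of all human miRNAs. However, no spot used of the 4 undetected members passed 12.5, and only 4 of 18 for hsa-miR-301a-3p, 8 of 20 for hsa-miR-454-3p and 3 of 19 for hsa-miR-454-5p passed 5.58, the negative control level without the brightest control probe. A low level of these 3 could not be told from background on this array.

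The deposited normalized values did not carry these differences. The log2 value was 5.11 for hsa-miR-130b-3p and 4.40 for hsa-miR-130a-3p. For each of the 4 undetected members it was 2.32, which is 5.0 on the linear scale and was shared by all 1101 undetected human miRNAs. The software's total signal was 0.1 for each of the 4, against 45.0 and 28.6 for the detected guides. Both sets of values thus held a fixed floor for hsa-miR-301a-3p on this array.

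The opposite arms of every family hairpin were compared next, with the remaining arms added. Mean brightness was 2.31 ± 1.63 (SD over 20 spots) for hsa-miR-130a-5p, -2.51 ± 1.55 (SD over 19 spots) for hsa-miR-301a-5p, 1.65 ± 2.74 (SD over 20 spots) for hsa-miR-301b-3p and 1.30 ± 2.77 (SD over 19 spots) for hsa-miR-301b-5p. None of these 4 arms was detected, by the software's flag, by either criterion of spots well above background or by that of positive and significant spots, all over the spots used. Of all human miRNAs the flag called 56.8%, and the criterion of positive and significant spots 68.9%. With its outlier spot kept, 5 of 10 spots of 1 hsa-miR-301b-5p probe were positive and significant, which would meet the last criterion. Since the 5p arms of MIR130A and MIR130B had only a bound, a floor of 16.0 was put in their place. It is the lowest mean among probes of detected human miRNAs for which a share of 0.5 or more of the spots was well above background. On that basis the 3p arm was at least 7.59-fold brighter than the 5p arm for MIR130B and at least 4.87-fold for MIR130A. On the log2 scale these bounds were 2.92 and 2.28. After normexp, with its offset of 50 left in, they were 1.25 and 0.85. For the other 3 hairpins both arms were undetected and no fold is given. The means of their 6 arms lay between -2.51 and 4.96, and medians of the negative control probes ran from -3.18 to 2.27, with the bright one at 8.62.

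**Figure D3:**
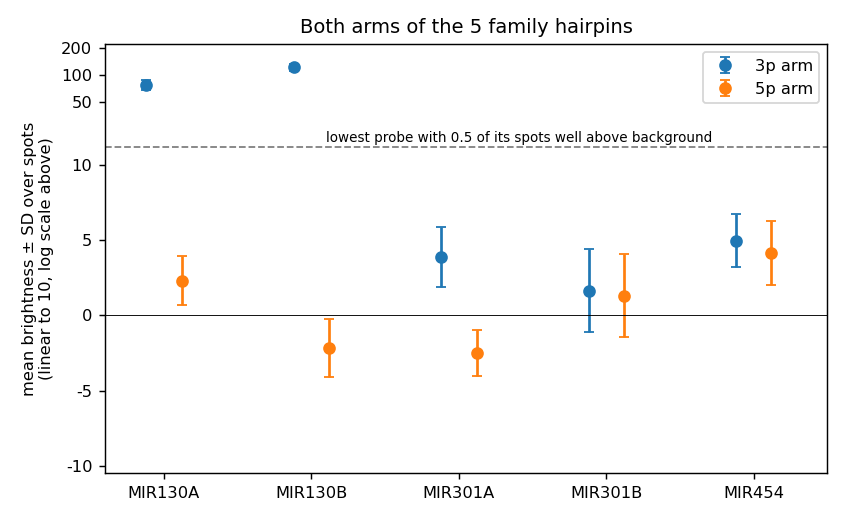
Mean brightness ± SD over spots of the 3p arm (blue) and the 5p arm (orange) of the 5 family hairpins, on an axis that is linear to 10 and logarithmic above. The 3p arms of MIR130A and MIR130B lie above the floor, the lowest probe for which 0.5 or more of the spots were well above background (dashed line, 16.0), and the other 8 arms lie below it.

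The guides of the neighbouring hairpins on chromosome 22 were not detected together. hsa-miR-130b-3p was detected at 121, and hsa-miR-301b-3p, whose hairpin ends 245 bases before that of MIR130B, was not, at 1.65. On chromosome 17 neither the guide of MIR454 nor that of MIR301A was detected. The guides were read by different probes, which can bind unequally well, and why neighbours differed was not tested.

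Beyond the family, hsa-miR-3666 has the same seed and was brighter than any member. Its mean brightness was 360 ± 61.2 (SD over 20 spots), with a lowest spot of 254, a median of 380 and a highest of 432, and its log2 signal was 0.51. It ranked 233 of the 1448 detected miRNAs. Its sequence matched hsa-miR-130b-3p at bases 1 to 8 and differed at 9 of 21 positions in all. The other extra miRNA with the seed, hsa-miR-4295, was not detected, at -3.62 ± 1.96 (SD over 20 spots). Of the 7 guides made up of hsa-miR-130a-3p and the 6 printed above, 3 were detected, again beside 56.8% of all human miRNAs.

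The seeds of the miR-148/152 and miR-19 families overlap the AGUGCAA seed with a shift of 1 base, so they are set beside it. Capitals again mark bases 2 to 8.
hsa-miR-148b-3p: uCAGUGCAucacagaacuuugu
hsa-miR-152-3p: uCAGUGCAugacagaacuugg
hsa-miR-19b-3p: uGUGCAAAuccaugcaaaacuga

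Of the 5 miRNAs of these families described here, 3 were detected, beside 56.8% of all human miRNAs. Only those 3 are printed above. hsa-miR-19b-3p, from the miR-17/92 cluster and its relative, averaged 94.2 ± 13.9 (SD over 20 spots), between those of the detected family guides. hsa-miR-148b-3p and hsa-miR-152-3p were flagged as detected at only 9.85 ± 5.66 and 10.9 ± 3.30 (SD over 20 spots each), with 1 and 0 spots well above background. hsa-miR-148a-3p at 6.25 and hsa-miR-19a-3p at 6.48 were not detected. The best probe of hsa-miR-152-3p reached 3.15 times its error, just past the 3 needed, and its other probe 2.38 times. The best probes of hsa-miR-19a-3p and hsa-miR-148a-3p reached 2.06 and 1.83 times.

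Position on the array moved with the brightness of the detected guides. The 2280 probes whose spots were all well above background were taken. Their spots in columns 1 to 41 of 164 were dimmer than the same probe elsewhere by a median of -0.25 on the log2 scale. The other 3 blocks of 41 columns had medians between -0.00336 and 0.00482. The drop did not end sharply at column 41, as spots around column 46.5 still had a median of -0.062. In the first block 11.7% of the spots of these probes were marked as outliers, against 2.86%, 1.86% and 1.35% in the other blocks. The hsa-miR-130a-3p probes were dimmer there by -0.22 and -0.23 and the hsa-miR-130b-3p probes by -0.26 and -0.21, close to the value over all probes. These rest on 1 and 4 spots of the hsa-miR-130a-3p probes and on 2 and 3 spots of the hsa-miR-130b-3p probes in that block. The spots of hsa-miR-130b-3p at 109 and 110 in this block, 2 of its 3 outliers, lay below the 123 to 143 of the same probe elsewhere. The lowest hsa-miR-130a-3p spot, 59.9, lay outside the block in column 44. It was below the 67.1 to 69.4 of the same probe within the block. In the first block hsa-miR-3666 dropped further, by -0.40 and -0.48, on 4 and 3 spots, and the values for hsa-miR-19b-3p were 0.06 for both probes, on only 1 and 2 spots. Without the first block the log2 signals were -1.71 for hsa-miR-130a-3p and -1.07 for hsa-miR-130b-3p.

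**Figure D4:**
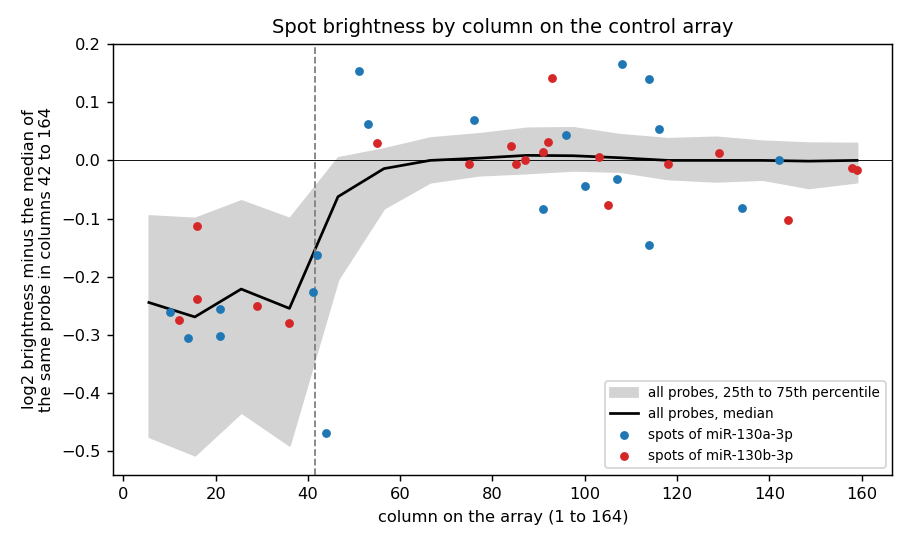
Log2 brightness of each spot minus the median of the same probe in columns 42 to 164 (vertical axis) against its column on the array (horizontal axis), for the spots of hsa-miR-130a-3p and hsa-miR-130b-3p, outliers included, with the median and the 25th to 75th percentile over all probes in black and grey. Left of the dashed line both guides fall with the probes as a whole, whose median there is -0.25.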

How the data were processed

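miRNA was measured on 1 array, assigned to the empty control vector from the sample labels. The authors scanned it and deposited the spot intensity on a linear scale, with local background subtracted and flags set in Agilent Feature Extraction, version 11.0.1.1. The authors deposited log2 values too, quantile normalized in GeneSpring GX. The methods speak of 6 samples in the filter that follows, without naming the arrays normalized together.

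Outlier spots were left out, intensity below 1 was set to 1 for log2 values, and spots were averaged within probes and then over probes. The 75th percentile over detected probes (a detected miRNA, at least 0.5 of spots well above background) was subtracted. Mean brightness on the linear scale was taken over all spots used. normexp (limma 3.58.1, R 4.3.3, offset 50) was run on median spot signals in place of the raw signal planned. Seeds were set by hsa-miR-130b-3p. Named were all members, the other family arms, and miRNAs with the same or a shifted seed. Members and lists were chosen with earlier results of these data known. Python 3.11.15, numpy 2.4.6 and pandas 2.3.3 were used, and the spot SD and column shift were tested on simulated data. The number of arrays limits the precision, and with 1 array neither a test nor a p-value could be had. Alternatives covered scaling, background correction, outliers, probe summary, signal column, detection criterion, and, chosen after seeing the data, leaving out the first 41 columns.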

Additional observations from a re-analysis of the deposited data

How the results depend on the processing

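Of 60 values under alternative settings, 36 moved by no more than a set spread or, for counts, stayed within 1.5-fold, and 24 moved. The spread was the SD between spots for signals, brightness and arms. It was the standard error for differences between probes, and 0.074 for the median SD between spots. No paired analysis was possible because only 1 array was analysed. The log2 signals depend on their zero point, which moves all miRNAs alike: with the percentile over all human probes they were 0.10 for hsa-miR-130a-3p and 0.76 for hsa-miR-130b-3p. In the same order they were -1.16 and -0.76 after normexp, -1.41 and -0.76 from total signals, and -1.46 and -0.76 from the deposited log2 values. After normexp, less its offset, brightness was 14.1 for hsa-miR-301a-3p, 15.6 for hsa-miR-454-3p, 8.09 for hsa-miR-130b-5p and 14.8 for hsa-miR-454-5p. All 4 were higher than before, hsa-miR-130b-5p from -2.19. The negative control level on this scale is not given, and the level of 12.5 does not apply to it. Members detected were 5 when positive and significant spots counted, beside 68.9% of all human miRNAs. They were 2 under both criteria of spots well above background, for which no share over all human miRNAs was worked out. Of the 4 other arms, 2 miRNAs with the same seed and 5 with a shifted seed, 4 in all were detected by the software's flag. The flag called 56.8% of all human miRNAs. Under both criteria of spots well above background 2 and 2 were called, again with no share to set beside them. When positive and significant spots counted 6 were called, beside 68.9% of all human miRNAs. After normexp 1 member was 2-fold above the negative controls. The lower bound of the log2 difference between arms, 2.28 for MIR130A and 2.92 for MIR130B, was 0.85 and 1.25 after normexp, 4.70 and 5.36 from total signals, and 2.08 and 2.78 from the deposited values. The log2 difference between the hsa-miR-130b-3p probes was 0.090 after normexp and 0.10 without the first 41 columns, with standard errors of 0.025 and 0.021. Apart from the brightness given less the offset, the values after normexp held its offset of 50, which draws ratios together. How much of those moves came from the offset was not tested, nor was the cause of the others.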

Other observations

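The drop in columns 1 to 41 differed between miRNAs more than between probes of 1 miRNA. Over 501 human miRNAs with 2 probes measured on both sides, Pearson's r between the drops of the paired probes was 0.82. The points are miRNAs of the same array, share its scan and are not independent. Over 893 miRNAs with a RefSeq sequence, r between the mean drop and the GC content of the mature sequence was 0.40. The median drop was -0.40 on the log2 scale in the 304 miRNAs of lowest GC content, -0.28 in the 291 in the middle and -0.15 in the 298 of highest.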
